A study of Mus musculus with 40 samples.

Results

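Subcutaneous white adipose tissue (sWAT) of mice fed a high-fat diet (HFD) and given tirzepatide was compared with sWAT of mice fed the HFD alone. The comparison holds 16 of the 40 libraries of the series, 8 of each group, and was chosen from the labels alone: all samples labelled HFD-fed tirzepatide against all labelled HFD-fed, each numbered from 1 to 8. The other groups were mice on normal diet (ND), on HFD with semaglutide, and mice switched from HFD back to ND; ND and semaglutide levels are given beside some genes. Both compared groups ate the HFD, and the labels separate them by the drug alone. The labels give no strain, sex, age, dose, route, treatment time or body weight, and they do not say whether a library is 1 animal or a pool. P-values therefore measure the spread between these samples.

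Tirzepatide is a lipidated peptide that activates the receptors of the 2 incretin hormones, glucose-dependent insulinotropic polypeptide (GIP) and glucagon-like peptide 1 (GLP-1), and it lowers food intake and body weight. White adipocytes take up fatty acids from lipoproteins, make others from glucose, esterify them to triglyceride on lipid droplets, and release them again when β-adrenergic signals start lipolysis. On an HFD the tissue expands: adipocytes enlarge, leptin secretion rises, matrix is laid down and macrophages move in. Levels below are CPM (a gene's share of its library's counts, scaled with TMM factors), given as the median of the 8 libraries with the lowest and highest in brackets, and differences are log2 fold changes, tirzepatide minus HFD, with SE from an edgeR quasi-likelihood fit over all 40 libraries. A gene is called higher or lower when its Benjamini-Hochberg adjusted p over all genes tested is under 0.05. In bulk tissue, fewer cells of a type and less RNA per cell cannot be told apart.

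The HFD libraries held 3144870 to 5489030 counts and the tirzepatide libraries 2115471 to 7445548, the lowest in tirzepatide 1 and the highest in tirzepatide 8. Adipocyte genes were high in both groups, with a mean log2 CPM over 5 markers of 11.1 to 11.7 on HFD and 10.9 to 11.3 with tirzepatide. Skeletal muscle RNA differed between the groups. The mean log2 CPM of 13 muscle genes (the muscle score) was above 5 in HFD 4 and in tirzepatide 1, 2, 4, 5 and 7, and the 14 muscle markers summed to 83.9 to 1335 CPM on HFD and 145 to 4360 CPM with tirzepatide. Of the 13 tested, 4 were called higher (Myh1, Myh2, Ttn and Atp2a1, all parts of the contractile apparatus or its calcium pump), and the list's median log2 fold change was 2.98. Myh1, a myosin of fast fibres, went from a median of 0.341 CPM (0 to 3.01) on HFD to a median of 7.09 CPM (0.415 to 89.2) with tirzepatide. Leaving out tirzepatide 4 ended the calls of Ttn (3.27) and Atp2a1 (3.16). Among the other marker lists, B cell genes summed to at most 9.18 CPM on HFD and 10.8 CPM with tirzepatide, T cell genes to 20.3 and 23.1 CPM and skin genes to 45.4 and 19.7 CPM. Neutrophil markers summed to 19.8 to 46.2 CPM on HFD, with Ly6g at 0, and to 6.76 to 35 CPM with tirzepatide. Every comparison was therefore refitted in 2 ways, chosen after these libraries were seen: with the muscle score as a covariate, and without the 12 muscle-high libraries of the series, which leaves 7 HFD and 3 tirzepatide libraries. With the covariate the median of the muscle list was 0.18, none of the 13 was called higher and 2 were called lower. The score is the mean of these same 13 genes, so this drop is built into the fit and is no test of it.

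**Figure D1:**
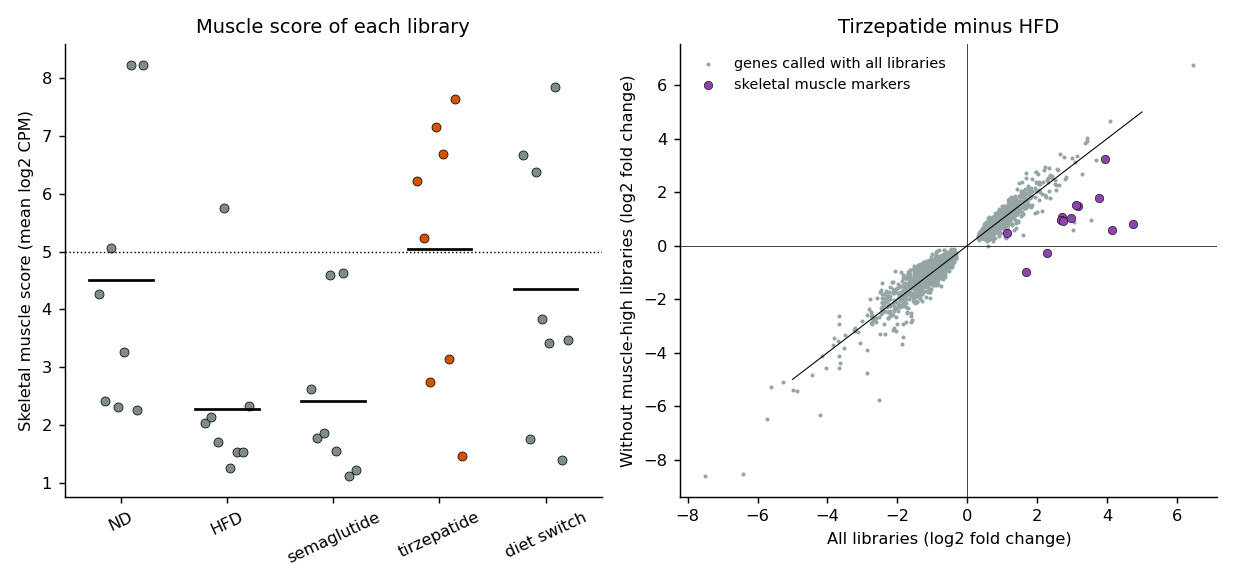
Left, skeletal muscle score (mean log2 CPM of 13 muscle genes) of each library by group, 8 points a group, with the group mean as a line and the value of 5 dotted; 5 of the 8 tirzepatide points and 1 HFD point lie above it. Right, log2 fold change (tirzepatide minus HFD) with all libraries against that without the muscle-high libraries. Grey points are the genes called with all libraries and purple points the muscle markers. The grey points lie along the diagonal. The muscle markers lie below it, and the libraries left out were chosen by the score of these same markers.

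Of 15807 genes tested, 3246 (20.5%) were called, 1548 higher (9.79%) and 1698 lower (10.7%) with tirzepatide. These shares are the ones to set beside the counts of called genes in each list below. The median log2 fold change over all genes was 0.03. A change beyond 2-fold was seen for 413 of the genes called higher and 725 of those called lower, and one beyond 4-fold for 58 and 117. In 573 genes (3.62% of those tested) no library of either group reached the other, with all tirzepatide libraries above in 213 (1.35%) and below in 360 (2.28%). With the muscle score as covariate 2218 genes (14.0%) were called, among them 1010 of the 1548 higher and 1135 of the 1698 lower genes. Without the muscle-high libraries 1052 of 17024 genes tested were called, 541 higher and 511 lower. Among the 1052 were 512 of the 1548 higher and 477 of the 1698 lower genes. All 1542 and 1698 of them that were tested there kept their sign. Within groups, 15 of the genes called higher and 1 of those called lower tracked the muscle score with r above 0.5, of 92 tested genes that did so. Leaving out 1 HFD or tirzepatide library at a time gave between 2529 calls (without HFD 2) and 3343 (without HFD 3), and 904 of the higher and 1131 of the lower genes were called every time.

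**Figure D2:**
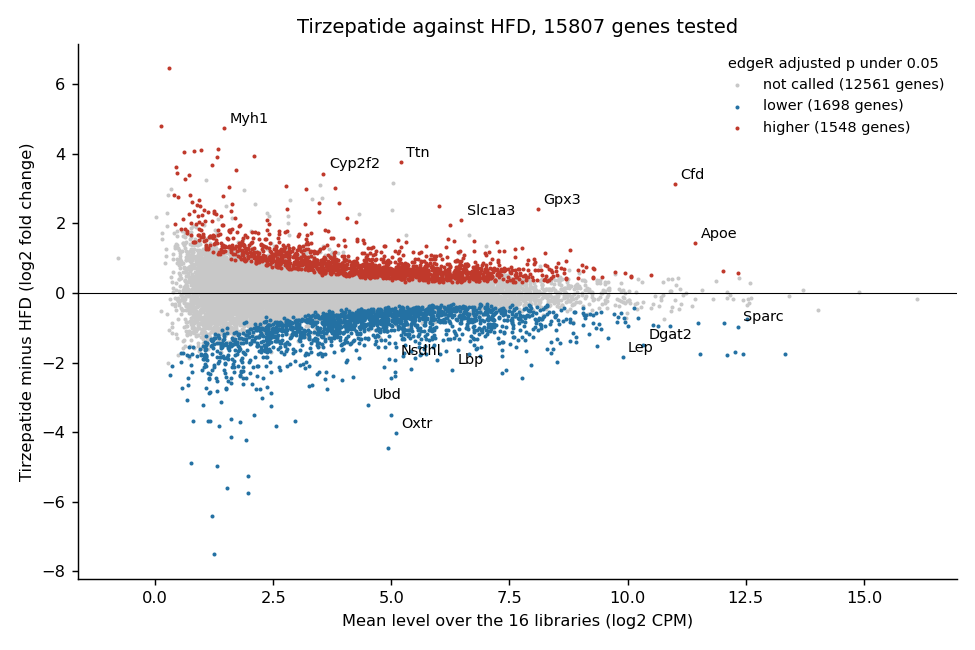
Log2 fold change (tirzepatide minus HFD) of each of the 15807 genes tested against its mean log2 CPM over the 16 libraries, coloured by edgeR's call. The 1548 genes called higher (red) and the 1698 called lower (blue) span the range of expression, and more of the largest changes are negative.

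Transcripts of the drug's own receptors were scarce. Glp1r, the GLP-1 receptor, had 3 counts over the 8 HFD libraries and 20 over the 8 tirzepatide libraries, too few to be tested. Gipr, the GIP receptor, had 91 and 122 counts, a median of 3.06 CPM (0 to 4.89) on HFD and a median of 3.56 CPM (1.20 to 4.93) with tirzepatide, and was not called (0.26 ± 0.49, adjusted p = 0.755). Dpp4, the protease that inactivates both incretins and also a marker of adipose progenitors, stood at -0.81 ± 0.39 (adjusted p = 0.138) and was not called. With the muscle score as covariate it was called lower (-1.21 ± 0.41, adjusted p = 0.0408), and without the muscle-high libraries it was not called (-1.33 ± 0.57, adjusted p = 0.16).

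The largest falls among genes whose groups did not overlap included receptors, enzymes and several genes of unknown role. Oxtr, the oxytocin receptor, ran from a median of 144 CPM (53.2 to 213) on HFD to a median of 7.04 CPM (4.84 to 17.2) with tirzepatide, a 16.3-fold difference (-4.03 ± 0.49, adjusted p = 3.46e-07). The groups did not overlap. Ubd, a ubiquitin-like modifier induced by inflammatory cytokines, went from a median of 75.7 CPM (29.8 to 108) to a median of 6.88 CPM (2.69 to 16.6), again without overlap (-3.21 ± 0.43, adjusted p = 1.6e-06). Pla2g2e, a secreted phospholipase of adipocytes, fell by 3.01 ± 0.47 on the log2 scale, and Ncan, a proteoglycan better known from brain, by 3.81 ± 0.46. Slc5a7, a choline transporter, fell by 3.67 ± 0.61 and Kcnj14, an inward-rectifier potassium channel, fell by 3.24 ± 0.49. Of the 12 largest falls, 5 more were genes without a well-described role (1700047G03Rik, Gm50322, 1700100I10Rik and A330069E16Rik) and a vomeronasal receptor gene, Vmn2r63. They had median levels of 33.1 CPM or less on HFD except 1700047G03Rik, which went from a median of 128 CPM (114 to 239) to a median of 5.97 CPM (1.81 to 18.3). All 12 were called lower in both muscle refits.

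Ranked by p in the fit with the muscle covariate, the first genes that fell were Cdkn1a, Lbp, Cstb, A330069E16Rik, Trp53inp2 and Paqr9. Cdkn1a, the cell-cycle inhibitor p21, ran from a median of 371 CPM (267 to 543) on HFD to a median of 83.0 CPM (40.0 to 155) with tirzepatide, with no overlap (-2.20 ± 0.23, adjusted p = 1.21e-08, and -2.15 ± 0.25 with the covariate). Lbp, which binds bacterial lipopolysaccharide, went from a median of 170 CPM (119 to 222) to a median of 37.3 CPM (24.6 to 51.0) (-2.20 ± 0.23). Trp53inp2, a regulator of autophagy, went from a median of 571 CPM (282 to 752) to a median of 89.9 CPM (46.6 to 162) (-2.45 ± 0.26). None of these tirzepatide libraries reached the lowest HFD library. Paqr9, a membrane receptor-family protein, and Cstb, which inhibits lysosomal cathepsins, fell by 2.30 ± 0.25 and 1.75 ± 0.19 on the log2 scale.

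Cyp2f2 and Cfd had the largest rises by the same rule. Cfd, which encodes adipsin (complement factor D), a serine protease secreted by adipocytes, ran from a median of 643 CPM (270 to 1649) on HFD to a median of 6767 CPM (4317 to 11260) with tirzepatide. The fold was 8.74 (3.13 ± 0.35, adjusted p = 3.37e-08), and every tirzepatide library was above every HFD library. Gpx3, the glutathione peroxidase of plasma, rose from a median of 136 CPM (68.9 to 190) to a median of 664 CPM (475 to 857) (2.41 ± 0.25). Apoe, a protein that carries lipid in lipoproteins, rose from a median of 1766 CPM (1286 to 2194) to a median of 4204 CPM (3512 to 6306) (1.42 ± 0.15, adjusted p = 1.21e-08). For Cfd, Gpx3 and Apoe the separation held in all 16 libraries, muscle-high or not. Cyp2f2, a cytochrome P450 that oxidises naphthalene, rose from a median of 3.84 CPM (0.220 to 9.32) to a median of 41.6 CPM (17.5 to 70.9), and Agt, angiotensinogen, from a median of 4.82 CPM (1.88 to 10.2) to a median of 25.6 CPM (13.8 to 40.8). Slc43a1, a transporter of branched-chain amino acids, rose by 2.59 ± 0.30 on the log2 scale, and Slc1a3, a glutamate transporter, by 2.09 ± 0.25. Sfxn1, which carries serine into mitochondria, went from a median of 99.0 CPM (73.6 to 143) on HFD to a median of 244 CPM (190 to 302) (1.22 ± 0.13). Fam13a, a gene linked to fat distribution, rose by 2.51 ± 0.34, and St6galnac5, a sialyltransferase of gangliosides, by 2.58 ± 0.32. All 12 of the largest rises were called in both muscle refits.

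Some of these genes overlap or lie near others that rose. On mm10 chromosome 10, Prtn3 (79874476 to 79883174) and Plppr3 (79860475 to 79874634) overlap at their ends and end 7679 and 16219 bases before Cfd (79890853 to 79892655). Elane, not tested, and Gm19810, not called, lie between Prtn3 and Cfd, and Plppr3 also overlaps Ptbp1, not called. Prtn3, which encodes a neutrophil protease, stood at 3.08 ± 0.41 and Plppr3 at 2.42 ± 0.30. Gm37310 (3.00 ± 0.50) lies within Slc1a3, and Fam13a and St6galnac5 each contain transcripts on the other strand that were also called higher. 2010016I18Rik (2.09 ± 0.40) overlaps Dennd2d, also called higher but not without the muscle-high libraries. The sources used here do not say whether counting used the strand, so the values of overlapping pairs are uncertain.

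**Figure D3:**
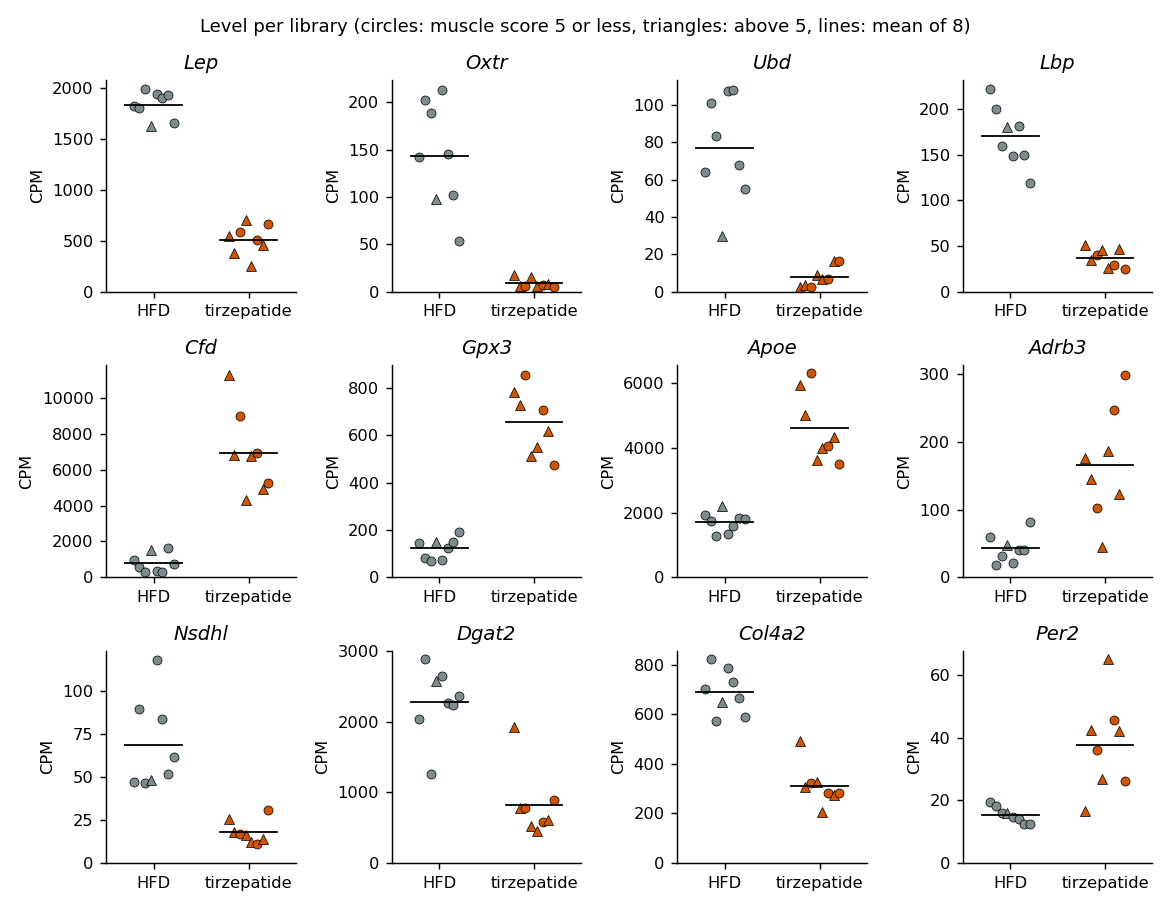
CPM of 12 genes in each of the 8 HFD (grey) and 8 tirzepatide (orange) libraries, on linear axes from 0; triangles are libraries with a muscle score above 5 and lines are group means. Lep, Oxtr, Ubd, Lbp, Cfd, Gpx3, Apoe, Nsdhl and Col4a2 show no overlap between the groups, and no muscle-high library crosses to the other group in those panels.

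Adipokines moved in opposite directions. Of 15 tested, 4 were called higher and 4 lower, with a median log2 fold change of -0.05. Lep, the satiety hormone leptin, ran from a median of 1868 CPM (1629 to 1999) on HFD to a median of 526 CPM (257 to 705) with tirzepatide, which is 3.58-fold lower (-1.84 ± 0.30, adjusted p = 2.29e-05). All 8 tirzepatide libraries were below all HFD libraries, and below the semaglutide median of 879 CPM. Adipoq, adiponectin, had a median of 2419 CPM (1707 to 2765) on HFD and a median of 2233 CPM (1836 to 2915) with tirzepatide and was not called (-0.05 ± 0.17, adjusted p = 0.877). Besides Cfd, Agt and Nampt, an enzyme of NAD synthesis, Nrg4, a neuregulin that acts on liver, rose (0.97 ± 0.20). Of 5 genes tied to adipose expansion, 3 fell. Mest, an imprinted gene of the mesoderm, ran from a median of 70.2 CPM (21.3 to 98.3) on HFD to a median of 13.3 CPM (5.88 to 27.4) with tirzepatide (-2.13 ± 0.46). Sfrp5, a Wnt inhibitor, went from a median of 362 CPM (280 to 462) to a median of 114 CPM (57.1 to 263) (-1.55 ± 0.39), and Npr3, which clears natriuretic peptides, fell by 1.07 ± 0.31 on the log2 scale. Nnat, neuronatin, a membrane proteolipid, moved the other way, from a median of 269 CPM (184 to 434) to a median of 684 CPM (557 to 825) (1.24 ± 0.22). With the covariate 3 of the 15 adipokines were higher and 5 lower, and without the muscle-high libraries 3 and 1. Nampt passed in neither, and failed on leaving out any 1 of 9 libraries. Without the muscle-high libraries Sfrp5 (-2.01 ± 0.61, adjusted p = 0.0508) and Npr3 (-1.28 ± 0.47, adjusted p = 0.102) did not pass.

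Of 18 genes of adipocyte identity, Slc2a4 and Adrb3 were called higher and Fabp4, Cidec, Lpl, Gpd1 and Lep lower, with a median of -0.10. Lpl and Gpd1 did not pass in either muscle refit, and Fabp4 did not without the muscle-high libraries. Gpd1 also failed without tirzepatide 4 (-0.51).

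Genes of fatty acid synthesis moved in both directions. Of 20 genes tested, 6 were called higher and 7 lower, with a median log2 fold change of -0.18. Acaca, acetyl-CoA carboxylase 1, which makes malonyl-CoA, ran from a median of 67.9 CPM (58.3 to 72.4) on HFD to a median of 116 CPM (80.3 to 240) with tirzepatide (1.00 ± 0.26, adjusted p = 0.0051); all tirzepatide libraries lay above HFD, while the ND median was 451 CPM. Fads1, the Δ5 desaturase, rose by 0.98 ± 0.17 on the log2 scale. Scd2, a Δ9 desaturase, went the other way, from a median of 199 CPM (115 to 326) to a median of 65.4 CPM (46.9 to 161) (-1.55 ± 0.29). Scd1, its main relative in adipocytes, was called higher (0.62 ± 0.20, adjusted p = 0.022), but not with the covariate (adjusted p = 0.0784) or without tirzepatide 4 (log2 fold change 0.54). Of the NADPH producers, Me1, malic enzyme, and G6pdx, glucose-6-phosphate dehydrogenase, fell by 1.29 ± 0.23 and 0.84 ± 0.16, and Pgd was also called lower. G6pdx did not pass without the muscle-high libraries (adjusted p = 0.0593). Fasn, fatty acid synthase, had a median of 1036 CPM (736 to 1247) on HFD and a median of 838 CPM (345 to 2412) with tirzepatide and was not called (0.07 ± 0.34, adjusted p = 0.913). Acly, ATP citrate lyase, was not called either (-0.29 ± 0.33, adjusted p = 0.571). Tirzepatide 1, the library of lowest depth and highest 18S share, held the highest Acly value. With the covariate 5 of the 20 were higher and 6 lower, and without the muscle-high libraries 5 and 4.

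Triglyceride synthesis and lipid droplet genes were mostly lower or not called. Among 14 triglyceride enzymes 2 were called higher and 4 lower, with a median of -0.37. Dgat2, which adds the last acyl chain, ran from a median of 2317 CPM (1268 to 2887) on HFD to a median of 700 CPM (460 to 1922) with tirzepatide (-1.48 ± 0.27, adjusted p = 0.000144). Only the highest tirzepatide library overlapped HFD. Mogat2, a monoacylglycerol acyltransferase, was at low levels in all libraries, from a median of 4.20 CPM (2.58 to 6.54) to a median of 0.395 CPM (0 to 0.830) (-3.21 ± 0.70). Gpat4, a glycerol-3-phosphate acyltransferase, rose (0.63 ± 0.15). Pck1, which supplies glycerol phosphate, was not called (0.58 ± 0.27, adjusted p = 0.12). Of 11 lipid droplet proteins 5 fell and none rose, against 10.7% lower over all genes, with a median of -0.46. Hilpda, an inhibitor of the lipase ATGL, ran from a median of 90.5 CPM (31.2 to 169) on HFD to a median of 22.3 CPM (8.16 to 31.1) with tirzepatide (-2.19 ± 0.30), and Cidec, which fuses droplets, from a median of 2216 CPM (1820 to 3105) to a median of 1199 CPM (852 to 1273) (-0.96 ± 0.17). Neither overlapped. Plin2, a droplet coat protein, and Bscl2, seipin, fell by 0.63 ± 0.15 and 0.70 ± 0.17. Without the muscle-high libraries 1 of the triglyceride enzymes (Dgat2) and 3 of the droplet genes were called lower, and none higher. Mogat2, Gpat4 and Plin2 did not pass there (adjusted p = 0.0838, 0.106 and 0.0858).

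In lipolysis both β-adrenergic receptors called were higher. Of 14 genes tested 2 rose and 3 fell, against 9.79% higher and 10.7% lower over all genes, with a median of 0.01. Adrb3, the β3-adrenergic receptor of adipocytes, ran from a median of 40.2 CPM (18.8 to 82.1) on HFD to a median of 160 CPM (44.6 to 299) with tirzepatide (1.95 ± 0.34, adjusted p = 0.000108), beside an ND median of 203 CPM. Adrb1, the β1 receptor, rose from a median of 6.19 CPM (3.55 to 18.3) to a median of 19.1 CPM (13.8 to 24.2) (1.33 ± 0.33). In both genes 1 or more tirzepatide libraries lay within the HFD range. Adora1, the adenosine receptor that restrains lipolysis, fell (-0.59 ± 0.18), as did G0s2, an ATGL inhibitor (-1.04 ± 0.34). With the covariate neither passed (adjusted p = 0.0503 and 0.0747), while both β receptors did. Without the muscle-high libraries Adrb3 and Adora1 passed, and Adrb1 (1.12 ± 0.45, adjusted p = 0.129) and G0s2 (adjusted p = 0.45) did not.

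Enzymes of cholesterol synthesis were lower where they were called. Of 20 tested, 10 were called lower and none higher, against 10.7% lower over all genes, and the median log2 fold change was -0.81. Of the 10, 4 act before squalene and 6 after it. Lss, lanosterol synthase, which closes the sterol ring, ran from a median of 16.4 CPM (9.82 to 24.0) on HFD to a median of 4.21 CPM (2.1 to 7.47) with tirzepatide (-1.79 ± 0.29, adjusted p = 1.71e-05). Nsdhl, which removes the C4 methyl groups together with others, went from a median of 56.5 CPM (46.7 to 118) to a median of 16.4 CPM (11.1 to 30.8) (-1.92 ± 0.28, adjusted p = 3.2e-06). Hsd17b7, the 3-ketosteroid reductase of that step, went from a median of 17.9 CPM (12 to 27.5) to a median of 6.72 CPM (2.63 to 9.16) (-1.55 ± 0.28). Each of these had no overlap between groups. Tm7sf2, a C14 sterol reductase at low level, fell from a median of 4.85 to 0.547 CPM (-2.82 ± 0.45). In the early steps Hmgcs1, which makes HMG-CoA, fell by 1.26 ± 0.23. Among those not called were Sqle, Fdft1, Idi1, Mvk, Acat2, Msmo1, Ebp and Sc5d. The others called lower were Pmvk, Mvd, Fdps, Cyp51 and Dhcr7. Among 10 genes of cholesterol uptake and control, Insig1 and Insig2, which hold back the sterol-sensing transcription factors, fell by 1.17 ± 0.29 and 0.76 ± 0.21, but neither passed without the muscle-high libraries (adjusted p = 0.132 and 0.127). With the covariate 8 of the 20 enzymes were lower and without the muscle-high libraries 6, and none was higher in either. Mvd and Fdps failed in both of these fits, and Pmvk and Cyp51 in the second.

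The start regions of these enzymes were examined because the sterol pathway is known to be driven by SREBP-2 together with NF-Y, which binds CCAAT boxes. In the 250 bases before the start, taken from RefSeq (GRCm38.p6, the mm10 assembly) for 15 of the enzymes, the letters CCAAT were found on either strand in 14 (93.3%), against 40.2% of 10069 tested genes with an entry, 41.3% of those called lower and 37.5% of all 27025. Among clock genes it was 11 of 15 (73.3%). Of the enzymes with the letters, Mvk, Idi1, Msmo1, Ebp and Sc5d were not called. Acat2, the enzyme without them, was not called either. The sterol element written as TCACNCCAC was found in 1 of the 15 (Hmgcs1), against 1.15% of tested genes. Shown are 120-base stretches of 4 of the genes called lower, 5′ to 3′ on the gene's strand. Capitals mark CCAAT, seen as ATTGG where it lies on the other strand, and, in Hmgcs1, the sterol element. Hmgcs1 and Hsd17b7 each hold 3 CCAAT matches in the 250 bases, of which the stretch shows 1. The stretches lie at chr13:119690152-119690271 (+) for Hmgcs1, chr10:76531485-76531604 (+) for Lss, chrX:72918398-72918517 (+) for Nsdhl and chr1:169969233-169969352 (-) for Hsd17b7. A match is a description of the letters, not of binding.
Hmgcs1: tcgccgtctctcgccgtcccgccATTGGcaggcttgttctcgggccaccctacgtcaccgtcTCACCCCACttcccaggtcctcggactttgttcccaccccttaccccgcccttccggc
Lss: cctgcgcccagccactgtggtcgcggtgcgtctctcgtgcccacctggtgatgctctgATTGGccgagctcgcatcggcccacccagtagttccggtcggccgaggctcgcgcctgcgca
Nsdhl: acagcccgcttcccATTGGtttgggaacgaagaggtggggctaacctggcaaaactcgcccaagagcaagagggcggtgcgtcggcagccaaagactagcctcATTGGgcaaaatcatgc
Hsd17b7: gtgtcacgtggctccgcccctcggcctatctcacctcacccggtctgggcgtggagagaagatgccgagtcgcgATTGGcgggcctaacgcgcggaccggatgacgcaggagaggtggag

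**Figure D4:**
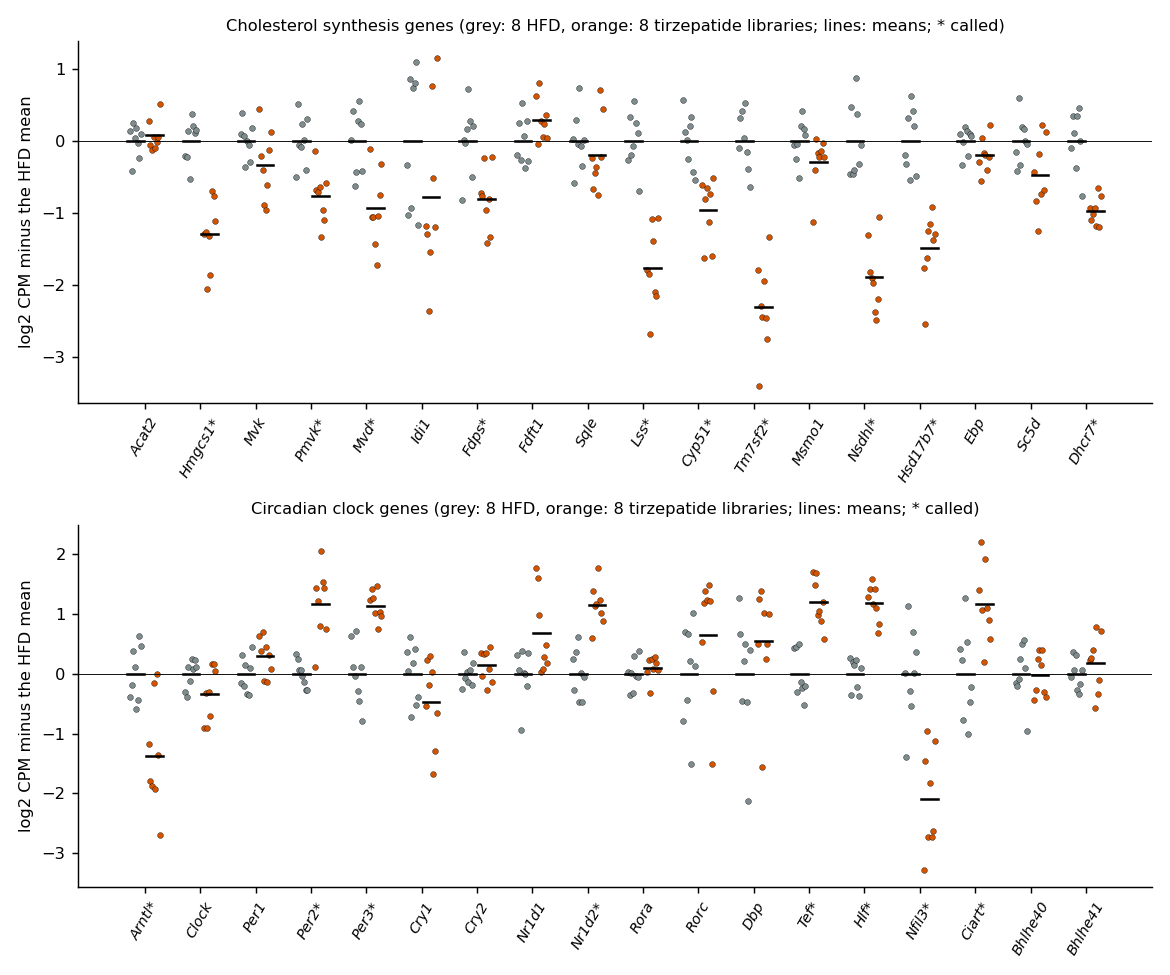
Log2 CPM of each library minus the gene's mean over the 8 HFD libraries, for 18 of the 20 cholesterol synthesis enzymes tested (top) and the 18 clock genes tested (bottom); grey points are HFD, orange points tirzepatide, lines are means and asterisks mark called genes. In the top panel the orange points of Hmgcs1, Lss, Tm7sf2, Nsdhl and Hsd17b7 lie below all grey points. In the bottom panel the orange points of Per3, Tef and Hlf lie above all grey points.

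Genes of the molecular clock also differed. The clock is a loop in which Arntl (BMAL1) and Clock switch on Per, Cry and Nr1d genes through E-boxes, and the PAR-bZIP factors Dbp, Tef and Hlf, opposed by Nfil3, act through D-boxes. Of 18 genes tested 6 were called higher and 2 lower, against 9.79% and 10.7% over all genes, with a median of 0.45. On the positive arm Arntl fell (-1.29 ± 0.38, adjusted p = 0.0121). On the negative arm Per2 ran from a median of 15.4 CPM (12.5 to 19.3) on HFD to a median of 39.1 CPM (16.7 to 65.1) with tirzepatide (1.29 ± 0.24), and Per3 from a median of 39.2 CPM (21.8 to 63.1) to a median of 84.4 CPM (64.6 to 107) (1.10 ± 0.20). The groups overlapped for Per2 and not for Per3. Nr1d2 (REV-ERBβ) rose by 1.16 ± 0.19. Among outputs Hlf rose from a median of 25.2 CPM (17.8 to 27.8) to a median of 55.0 CPM (37.4 to 71.0) and Tef from a median of 97.2 CPM (76.2 to 154) to a median of 240 CPM (163 to 357), while Nfil3, at low level, fell by 2.44 ± 0.50. Ciart, a repressor of the loop, rose by 1.3 ± 0.39, and Dbp was not called (0.61 ± 0.49, adjusted p = 0.399). The labels give no time of collection, so time of day and drug cannot be told apart. The medians with semaglutide were 33.5 CPM for Per2, 49.9 for Hlf and 154 for Tef, and those on ND 7.46, 22.1 and 98.2. With the covariate the counts were again 6 and 2, and without the muscle-high libraries 5 and 0, where Arntl, Nfil3 and Ciart did not pass (adjusted p = 0.19, 0.0871 and 0.134). Ciart also failed without tirzepatide 2 (1.08).

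In the 250 bases before the start the E-box CACGTG was found in 5 of 15 clock genes with a RefSeq entry (33.3%), against 9.77% of tested genes. The D-box written as TTATGNAA on either strand was found in 2 of the 15 (13.3%), against 2.45%. Of the 5 with an E-box, Per1, Cry1 and Bhlhe41 were not called, and Per1 is also 1 of the 2 with a D-box. Shown are 120 bases of the genes with the most matches among those called: Per3 at chr4:151044784-151044903 (-), with D-boxes in capitals, and Ciart at chr3:95882247-95882366 (-), with E-boxes in capitals.
Per3: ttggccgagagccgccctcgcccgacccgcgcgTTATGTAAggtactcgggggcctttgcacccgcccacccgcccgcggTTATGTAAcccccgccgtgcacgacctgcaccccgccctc
Ciart: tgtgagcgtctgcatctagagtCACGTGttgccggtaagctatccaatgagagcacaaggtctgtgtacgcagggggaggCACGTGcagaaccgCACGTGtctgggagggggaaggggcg

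Insulin signalling and glucose use were higher in more genes than lower. Of 18 tested 6 rose and 1 fell, against 9.79% higher and 10.7% lower over all genes, with a median of 0.17. Irs1, the first docking protein of the insulin receptor, ran from a median of 22.6 CPM (16.6 to 25.9) on HFD to a median of 35.8 CPM (26.3 to 66.5) with tirzepatide, with no overlap (0.92 ± 0.20, adjusted p = 0.000902). Insr, the receptor itself, rose by 0.76 ± 0.22, and Pik3r1, the regulatory subunit of PI3-kinase, by 0.96 ± 0.18. Slc2a4, the insulin-responsive transporter GLUT4, ran from a median of 70.2 CPM (50.2 to 99.8) to a median of 124 CPM (98.1 to 148), and only the lowest tirzepatide library reached the HFD range (0.78 ± 0.15). Pdk2, which restrains pyruvate oxidation, rose by 0.98 ± 0.17. In both muscle refits the genes called were higher only, 7 with the covariate and 6 without the muscle-high libraries. Glycolysis had no gene higher and 4 of 13 lower, against 10.7% lower over all genes. Ldha, lactate dehydrogenase A, fell from a median of 263 CPM (216 to 308) to a median of 139 CPM (95.9 to 236) (-0.91 ± 0.15). Tpi1 and Eno1, also enzymes of glycolysis, fell by 0.74 ± 0.18 and 0.53 ± 0.15. Without the muscle-high libraries 1 of the 13 was lower, and these 3 did not pass (adjusted p = 0.0604, 0.208 and 0.131). The 20 genes of branched-chain amino acid breakdown had 3 higher and 2 lower, against 9.79% higher and 10.7% lower over all genes. Bcat2, the mitochondrial aminotransferase that starts it, rose from a median of 87.0 CPM (62.7 to 154) to a median of 199 CPM (70.7 to 330) (1.11 ± 0.20), with Ppm1k, which activates the next step, at 0.91 ± 0.22 and Ivd, isovaleryl-CoA dehydrogenase, at 0.65 ± 0.16. With the covariate 3 were higher and none lower, and without the muscle-high libraries 2 and none, where Ivd did not pass (adjusted p = 0.169).

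For fat oxidation, 3 of 22 genes tested were called higher, 2 of them regulators, and 7 transport and oxidation genes lower, with a median of -0.24. Over all genes 9.79% were higher and 10.7% lower. Ppara, the fatty-acid-sensing nuclear receptor, ran from a median of 10.2 CPM (4.63 to 12.1) on HFD to a median of 22.8 CPM (15.3 to 41.9) with tirzepatide, without overlap (1.37 ± 0.28, adjusted p = 0.000455). Ppargc1a, the coactivator PGC-1α, rose by 1.26 ± 0.28. Cpt1a, which loads fatty acids onto carnitine, fell from a median of 46.5 CPM (38.2 to 62.3) to a median of 29.1 CPM (21.5 to 41.6) (-0.69 ± 0.16), and the carnitine carrier Slc25a20 fell by 0.83 ± 0.17. With the covariate 3 were higher and 6 lower, and without the muscle-high libraries 4 and 1, where Slc25a20 did not pass (adjusted p = 0.106). Of 7 genes of creatine and calcium cycling, Ckb was called higher and Gamt, Atp2a2 and Ryr2 lower. With the covariate Ckb and Ryr2 did not pass (adjusted p = 0.0834 and 0.115), and without the muscle-high libraries none of the 4 did. Ckb also failed without HFD 2 or tirzepatide 1 or 3 (0.41 to 0.46), and Ryr2 without HFD 5 or tirzepatide 3, 4, 5 or 6 (-1.33 to -1.22). Brown and beige genes gave no common direction, with 2 of 11 higher and 3 lower, and 1 and 2 in each muscle refit. Ucp1, the uncoupling protein, was listed at a median of 0.164 CPM (0 to 1.5) on HFD and a median of 1.54 CPM (0 to 7.89) with tirzepatide, and was not called (2.82 ± 1.38, adjusted p = 0.144). Dio2, which makes active thyroid hormone, and Otop1, a proton channel, fell by 2.1 ± 0.50 and 2.22 ± 0.49, both from median levels of 13.1 CPM or less on HFD. Nuclear genes of the respiratory chain had 2 of 20 higher and 4 lower, against 9.79% higher and 10.7% lower over all genes. Sdhb was among the higher (0.48 ± 0.13), and Cox5a (-1.75 ± 0.51), Uqcrfs1 (-0.96 ± 0.24) and Sdhc (-0.80 ± 0.19) among the lower. With the covariate 1 was higher and 4 lower, and without the muscle-high libraries 1 and 1, where Cox5a, Uqcrfs1 and Sdhc did not pass (adjusted p = 0.287, 0.149 and 0.325). Of 13 genes of the mitochondrial genome 1 was lower and none higher. The call of that gene, mt-Atp8 (-0.61 ± 0.19), ended with the covariate (adjusted p = 0.0863), without the muscle-high libraries (adjusted p = 0.147), without HFD 8 (log2 fold change -0.51, adjusted p = 0.0605) and without tirzepatide 4 (-0.53).

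Collagens were lower where they were called. Of 18 collagen genes tested 11 were called lower and none higher, against 10.7% lower over all genes, with a median of -0.75. Basement membrane chains were among them. Col4a2 ran from a median of 685 CPM (573 to 826) on HFD to a median of 294 CPM (206 to 492) with tirzepatide (-1.15 ± 0.17, adjusted p = 4.94e-06), and Col4a1, its partner chain, from a median of 944 CPM (793 to 995) to a median of 435 CPM (346 to 649). Col15a1, which links basement membrane to the interstitial matrix, fell by 1.27 ± 0.22, and Col5a2, a fibrillar chain, by 0.77 ± 0.16. With the covariate 10 of the 18 were lower and without the muscle-high libraries 8, none higher in either. Col4a1 and Col5a2 did not pass in the second (adjusted p = 0.051 and 0.0549). Of 39 other matrix genes 9 were lower and 2 higher, with 6 lower in each muscle refit. Loxl2, which crosslinks collagen, went from a median of 131 CPM (89.3 to 169) to a median of 53.4 CPM (30.1 to 74.3) (-1.29 ± 0.21), Serpinh1, the collagen chaperone, from a median of 342 CPM (185 to 456) to a median of 138 CPM (123 to 181) (-1.28 ± 0.23), and Lamc1, a laminin chain, fell by 0.78 ± 0.16. Sparc, a collagen-binding glycoprotein and one of the most abundant transcripts, went from a median of 7299 CPM (5806 to 8404) to a median of 3556 CPM (2238 to 5172) (-0.96 ± 0.20). None of these overlapped, and Lamc1 did not pass without the muscle-high libraries (adjusted p = 0.0801). Smooth muscle markers, which mark vessel walls and contractile fibroblasts, summed to 452 to 898 CPM on HFD and 103 to 393 CPM with tirzepatide. Of the 5 tested 2 were called lower and none higher, with log2 fold changes of -1.67 to -0.14 and a median of -0.62. With the covariate 2 were lower, and without the muscle-high libraries 1. Acta2, smooth muscle actin, went from a median of 402 CPM (339 to 614) on HFD to a median of 131 CPM (32.4 to 230) (-1.67 ± 0.34), while Myh11 and Tagln were not called (-0.62 ± 0.26 and -0.59 ± 0.30). Their part in the matrix result was not tested. Of 14 endothelial genes edgeR called none, and none with the covariate or without the muscle-high libraries; 1 higher and 1 lower had an unadjusted p under 0.05, DESeq2 called 1 and limma-voom 3. Of 13 progenitor genes 1 was higher (Pdgfra) and 1 lower (Anxa3), against 9.79% higher and 10.7% lower over all genes. Neither passed with the covariate (adjusted p = 0.089 and 0.0585). Pdgfra failed without HFD 2, HFD 6 or tirzepatide 5 (log2 fold change 0.41 to 0.45). Anxa3 failed without HFD 4, HFD 7 or tirzepatide 4, 5, 6 or 8 (-0.69 to -0.58).

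Inflammatory mediators were lower where called. Of 23 tested 9 were called lower and none higher, against 10.7% lower over all genes, with a median of -0.52. With the covariate 8 were lower, and without the muscle-high libraries 3. Among chemokines, Ccl11 (eotaxin) ran from a median of 82.3 CPM (30.1 to 121) on HFD to a median of 21.6 CPM (8.60 to 48.1) with tirzepatide (-1.72 ± 0.32), and Ccl7, which draws monocytes, from a median of 9.89 CPM (5.11 to 16.9) to a median of 1.87 CPM (1.48 to 4.84) (-1.98 ± 0.38). Ccl2, a related monocyte attractant, fell by 1.62 ± 0.47, and Nos2, the inducible nitric oxide synthase, by 2.30 ± 0.45. These were low transcripts apart from Ccl11. Saa3, an acute-phase protein made by adipose cells, fell by 2.14 ± 0.54. Without the muscle-high libraries Ccl2, Nos2 and Saa3 did not pass (adjusted p = 0.0867, 0.0607 and 0.259).

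Macrophage genes were mostly not called, as were most genes tested. Of 16 genes of lipid-associated macrophages 1 was higher (Apoe) and 2 were lower, shares near the 9.79% and 10.7% over all genes. Fabp5, a fatty acid binding protein shared with adipocytes, fell from a median of 628 CPM (354 to 741) to a median of 228 CPM (195 to 304) (-1.32 ± 0.20), and the call of Lgals3, galectin-3, ended without any 1 of HFD 1, 2, 5, 6 and 7 and tirzepatide 1, 2, 4, 6, 7 and 8 (-0.77 to -0.64) and in both muscle refits. Trem2, the receptor that defines these cells, was at a median of 16.8 CPM (11.4 to 28.4) on HFD and a median of 17.1 CPM (10.6 to 23.7) with tirzepatide and was not called (-0.19 ± 0.42, adjusted p = 0.796). Itgax (CD11c) was not called (-0.48 ± 0.29, adjusted p = 0.244), nor was Adgre1 (F4/80) (-0.19 ± 0.26, adjusted p = 0.644). Among 11 genes of resident macrophages 1, Retnla, was lower (-1.19 ± 0.40), a share near the 10.7% over all genes. The call of Retnla ended with the covariate (adjusted p = 0.0637) and without the muscle-high libraries (adjusted p = 0.203). It also ended without HFD 1 or tirzepatide 4, 6 or 7 (-1.14 to -1.07). Lysosomal genes had 7 of 20 lower and 1 higher, against 10.7% lower and 9.79% higher over all genes. With the covariate 6 were lower and 1 higher, and without the muscle-high libraries 3 and none. Ctsl, cathepsin L, ran from a median of 363 CPM (259 to 470) to a median of 160 CPM (99.9 to 227) (-1.17 ± 0.18), Lamp1, a membrane glycoprotein, fell by 0.69 ± 0.16 and Npc2, which moves cholesterol out of the lysosome, by 0.71 ± 0.16. Complement genes besides Cfd had C3, C4b (0.84 ± 0.17) and C2 (1.09 ± 0.23) higher, C3 not passing without HFD 2, HFD 5 or tirzepatide 3 (0.58 to 0.63), and C6, a component of the membrane attack complex, lower, from a median of 36.4 CPM (24.9 to 51.2) to a median of 6.63 CPM (3.38 to 12.4) (-2.51 ± 0.33). Interferon targets had 5 of 19 higher, against 9.79% over all genes, and none lower. Among the 5 were Usp18, which damps the interferon receptor (1.04 ± 0.26), and Oas2 (1.05 ± 0.29). With the covariate 2 of the 19 were higher and without the muscle-high libraries 3, and Oas2 passed in neither (adjusted p = 0.0712 and 0.313). Of 15 genes of antigen presentation edgeR called none, also with the covariate and without the muscle-high libraries; 2 lower had an unadjusted p under 0.05, DESeq2 called none and limma-voom 2.

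Of 17 xenobiotic genes 4 were higher, against 9.79% over all genes, none was lower and 13 were not called, with a median of 0.20. Both muscle refits also had 4 higher and none lower. Besides Cyp2f2 the 4 were Gstt1, a glutathione transferase, at a median of 36.4 CPM (19.1 to 43.6) on HFD and a median of 88.9 CPM (63.6 to 103) with tirzepatide (1.36 ± 0.18), Gsta4, which conjugates lipid aldehydes (1.29 ± 0.28), and the carboxylesterase Ces1f (1.19 ± 0.24). Of 14 antioxidant enzymes 2 rose (Gpx3 and Sod1) and 3 fell. Sod1 did not pass with the covariate (adjusted p = 0.0996), without the muscle-high libraries (adjusted p = 0.379), or without any 1 of HFD 1, 3, 4, 5 and 6 and tirzepatide 1 and 3. Sod2, the mitochondrial form, ran from a median of 242 CPM (226 to 319) on HFD to a median of 119 CPM (71.3 to 198) with tirzepatide, without overlap (-0.99 ± 0.16), and Sod3, the extracellular form, fell by 0.89 ± 0.22. Of the growth factor genes, Igf1r rose (0.61 ± 0.12), Igf2r and Igfbp3 fell (-0.66 ± 0.15 and -1.64 ± 0.30) and Igf1 was not called (-0.07 ± 0.16, adjusted p = 0.8). The immediate early genes had 2 of 19 lower, a share near the 10.7% over all genes: the stress-induced factor Junb (-0.97 ± 0.23) and the phosphatase Dusp1 (-1.01 ± 0.23), which did not pass without the muscle-high libraries (adjusted p = 0.0734). The cell cycle list had 1 of 15 lower, against 10.7% over all genes: the mitotic kinase Cdk1 (-1.60 ± 0.38). With the covariate 3 were lower. The hypoxia response list had 1 of 9 lower, Hif1a, the transcription factor of that response, and none of its targets called. The unfolded protein response list had 1 of 14 higher, Pdia4, and 1 lower, Calr. The calls of Hif1a, Pdia4 and Calr ended with the covariate (adjusted p = 0.0946, 0.0752 and 0.133). Hif1a failed without HFD 5 or 6 or tirzepatide 4 or 7 (-0.49 to -0.39), and Pdia4 and Calr each without any 1 of 11 libraries (0.33 to 0.43 and -0.38 to -0.34).

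**Figure D5:**
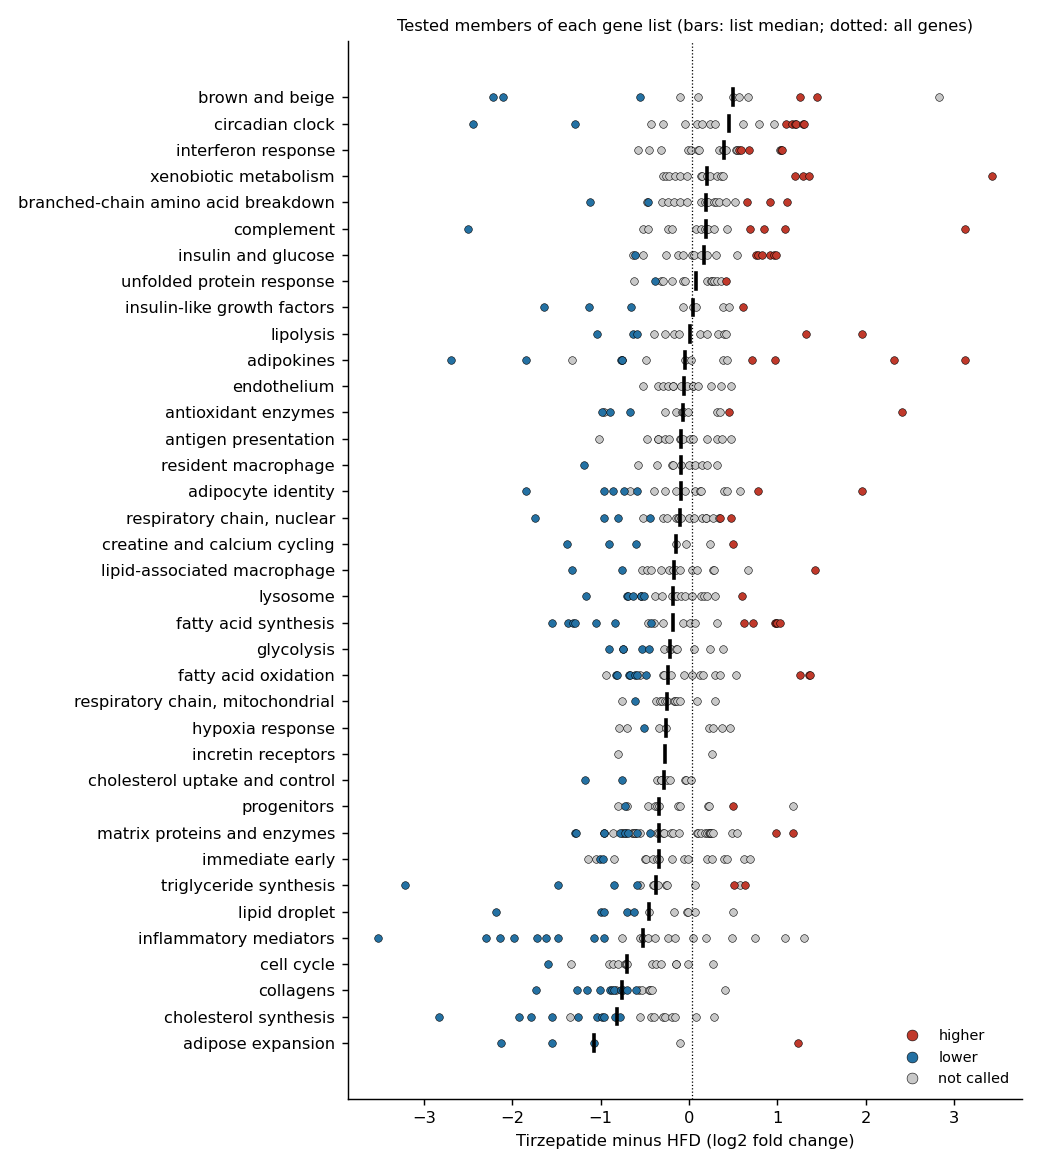
Log2 fold change (tirzepatide minus HFD) of every tested member of 37 gene lists, 1 row a list ordered by its median (bar), with genes called higher in red, lower in blue and others in grey; the dotted line is the median of all genes tested. Cholesterol synthesis and collagens hold blue and no red points, and xenobiotic metabolism and interferon response hold red and no blue points.

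Against semaglutide, an agonist of the GLP-1 receptor alone, 1584 of 15807 genes (10%) were called, 649 higher (4.11%) and 935 lower (5.92%) with tirzepatide. Semaglutide 1, 3 and 8 carried high B cell gene levels; without them and ND 5 there were 959 calls. With the muscle covariate 699 genes were called, 296 higher and 403 lower, and without the muscle-high libraries 207, 155 higher and 52 lower. The genes below were picked for their difference from HFD in the same tirzepatide libraries. Their direction, calls and p-values against semaglutide are therefore a description. Which of these single calls held in the muscle and B cell refits is not given here. Of the 12 largest falls against HFD all were lower than with semaglutide and 8 were called so, and of the 12 largest rises all were higher and 6 were called. Lep had a median of 879 CPM with semaglutide and 526 with tirzepatide (-1.10 ± 0.29, tirzepatide minus semaglutide, adjusted p = 0.0139). For Cfd the medians were 3209 and 6767 CPM (1.03 ± 0.33, adjusted p = 0.0381). Ppara was 7.49 and 22.8 CPM (1.48 ± 0.28, adjusted p = 0.000976), and Ccl11 85.1 and 21.6 CPM (-1.79 ± 0.32, adjusted p = 0.000739). Igfbp3 was 22.2 and 4.4 CPM (-2.15 ± 0.30, adjusted p = 6.26e-05). No call between the drugs was made for Col4a2 (-0.14 ± 0.17, adjusted p = 0.66), Nsdhl (-0.51 ± 0.27, adjusted p = 0.231) or Gpx3 (0.65 ± 0.24, adjusted p = 0.0666). Doses and times are not given for either drug.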

How the data were processed

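RNA of mouse subcutaneous white fat was sequenced with a Lexogen QuantSeq kit on a HiSeq instrument, per the labels' protocols, in 40 libraries, 8 in each of 5 groups. The authors deposited raw counts per gene symbol, and these counts were used as deposited; reads were placed on mm10, per the submitters' processing notes. No source used here names the aligner, counter, annotation or use of strand. A second, normalized table was not used; 16 of its columns match no sample. Genes were tested with edgeR 4.0.16 (R 4.3.3): TMM factors, filterByExpr, a robust quasi-likelihood fit of 5 group means to all 40 libraries, and Benjamini-Hochberg adjustment over 15807 genes, which hold 99.39% of counts. The SE is the log2 fold change divided by the root of F. Alternatives were DESeq2 1.42.0, limma 3.58.1 (voom with quality weights), other filters and scaling, a 1.5-fold threshold, only the 2 groups, a replicate block and leaving out single libraries; the fits without muscle-high or B cell-high libraries and with the muscle covariate were chosen after seeing the data. No 2 libraries of the same group agreed within sampling noise. On simulated data 47 of 67 genes changed 2-fold were called, 20 of 67 changed 1.5-fold and 64 of 66 changed 4-fold, with 4 unchanged genes called. The simulation changed 200 genes, all at a mean of 4 CPM or more, and drew each gene independently. It does not cover changes in genes at lower levels or muscle RNA that varies between libraries.

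Named genes were, in each direction, the 12 largest changes without overlap between groups at a mean log2 CPM of at least 2, the 6 smallest p with the muscle covariate, up to 4 genes a list by adjusted p, and a set of well-known genes. Hmgcs1, Arntl, Nfil3 and Ciart, and genes named without values, fall outside it and were chosen after their values were seen. The gene lists and the members were chosen with earlier results of these data known. Coordinates are from GENCODE M21 and start regions from RefSeq (GRCm38.p6). A few genes that the rule names are not reported here.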

Additional observations from a re-analysis of the deposited data

Results flagged for a closer look

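In 7 of 132 groups of 8 values, 1 library stood apart from the others by Dixon's 95% criterion, and chance gives about 1 in 20. In HFD 4 the skeletal muscle score was 5.75 and Ckm, muscle creatine kinase, was 82.1 CPM, both above the other 7 HFD libraries. In tirzepatide 1, the library of lowest depth, the share of counts from 18S RNA was 12.7% and Acly was 288 CPM, the highest of the group in each. In HFD 3 the 18S share was low, at 5.41%. Dbp was 0.247 CPM in tirzepatide 4, below the other 7 tirzepatide libraries, and 2010016I18Rik was 17.9 CPM in tirzepatide 5, above them.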

How the results depend on the processing

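Against HFD, the 3246 calls (1548 higher, 1698 lower) became 407 (112 and 295) with edgeR's test of a change over 1.5-fold and 1052 (541 and 511) without the muscle-high libraries. They ranged from 2529 to 3343 on leaving out 1 library (higher 1179 to 1646, lower 1350 to 1754), and were 3661 with DESeq2 and 4454 with limma-voom. Against semaglutide, the 1584 calls became 20 (6 higher, 14 lower) over 1.5-fold, 207 (155 and 52) without the muscle-high libraries, 699 (296 and 403) with the muscle covariate and 959 (405 and 554) without the B cell-high libraries, and ranged from 1087 to 1690 on leaving out 1 library. The 1.5-fold test asks for a larger change and the fits without libraries use fewer samples; the cause of the other shifts was not tested. With the replicate number as a block 3487 genes were called (1672 higher, 1815 lower). Same-numbered deviations correlated at -0.133 to 0.0592 and 0 of 8 numbers matched best with their own, so the numbers were not taken as pairs.

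Of 194 named genes, 148 were called; 23 calls ended with the covariate, 53 without the muscle-high libraries, 78 over 1.5-fold and 2 with the block. Signs turned only in genes not called against HFD: Fasn, at -0.088 with the block, -0.29 with limma-voom, -0.23 without tirzepatide 1 and -0.080 without tirzepatide 8 (from -0.23 to 0.20 on leaving out 1 library); Igf1, at 0.073 without the muscle-high libraries, 0.0080 with the covariate and 0.00098 without HFD 3 (from -0.16 to 0.00098 on leaving out 1 library); Gipr at -0.0018, Acta1 at -0.97 and Adipoq at 0.053 without the muscle-high libraries; and, with the covariate, Ckm at -0.18 and Acta1 at -0.98 (adjusted p = 0.044). Depth limits low genes such as Glp1r, which could not be tested.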

Other observations

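A group of abundant genes outside the lists ran together over all 40 libraries. Akap5, Tatdn1, Elp6, Lrrc17, Gm26549 and Sez6 correlated with Bc1, a short non-coding RNA known from neurons, at r of 0.985 to 0.999 in log2 CPM, a description chosen after the values were seen. All 7 were called lower with tirzepatide, by log2 fold changes of -1.82 to -1.69. Together they took 3.79 to 7.18% of counts on HFD (median 5.20%) and 0.925 to 2.28% with tirzepatide (median 1.56%). The level of Akap5 was 0.489 to 0.564 of that of Bc1 in every library, and that of Tatdn1 0.448 to 0.516. Transcripts of the 6 genes in GENCODE M21 share runs of 43 to 82 bases with the 168-base Bc1 transcript, sense in Tatdn1, Lrrc17 and Sez6 and antisense in Akap5, Elp6 and Gm26549. Of 15118 other tested genes 11 (0.0728%) share a run of at least 30 bases. Whether these genes were counted from the same reads was not tested, so their values are uncertain as 6 separate genes.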
